A study of Mus musculus with 48 samples.

Results

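The TGF-beta genes described here are 10 of the 24973 genes in the deposited table, chosen by name: the ligands *Tgfb1*, *Tgfb2* and *Tgfb3*, the receptors *Tgfbr1*, *Tgfbr2* and *Acvrl1*, the co-receptor *Eng*, the inhibitory *Smad6* and *Smad7*, and the matrix gene *Tgfbi*. They were measured by bulk RNA-sequencing in microglia (MG), astrocytes (AC), pericytes (PC) and endothelial cells (EC) of the neurovascular unit, the group of cells that forms and maintains the blood-brain barrier. The cells came from adult (12 to 15 weeks) male wild-type C57BL/6 mice with no transgene, whose middle cerebral artery had been occluded for 1 h and reperfused for 23 h. For each cell type there were 6 libraries from the ipsilateral (ischemic) hemisphere and 6 from the contralateral hemisphere, which was the control, so all 48 libraries came from operated mice and no unoperated brain was included. Each replicate was a pool of 3 to 4 mice, only mice with marked neurological symptoms were kept, and the hemispheres with the same replicate number were taken to come from the same pool. Microglia were sorted as CD45low and CD11b+ cells, and the other cell types from CD45- cells by VE-cadherin (EC), NG2 together with PDGFRbeta (PC) and ACSA2 (AC).

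TGF-beta ligands are secreted in a latent form and, once released, bind *Tgfbr2*, a serine-threonine kinase that recruits and activates the type I receptor *Tgfbr1*. *Tgfbr1* signals through Smad2 and Smad3, whereas *Acvrl1*, a type I receptor best known from endothelium, signals through Smad1 and Smad5 with the help of endoglin, the product of *Eng*. *Smad6* and *Smad7* are induced by the pathway and inhibit it, and *Tgfbi* encodes a secreted matrix protein first found as a gene induced by TGF-beta. In the brain, loss of *Eng* or *Acvrl1* function causes vascular malformations, and microglia need TGF-beta to keep their mature set of genes.

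Values are normalized counts, which the authors divided by a DESeq2 size factor for each library. Their sums ranged from 10549900 to 16942165 per library, and the spacing of the low values puts the reads on genes at about 5000000 to 16300000 per library, so that 3 reads correspond to at most 7.08 normalized counts, a floor that covers counting error only. For the 12 ipsilateral pericyte and microglia libraries the sample titles name the opposite cell type from the column names, and the column names were used. With them, all 18 defining markers of the 4 cell types (such as *Cldn5*, *Pdgfrb*, *Aqp4* and *Csf1r*) were higher in every library of their own cell type than in any other library. Other RNA was present all the same: the 4 oligodendrocyte markers summed to between 31112 and 350941 normalized counts in astrocyte libraries and the 4 smooth muscle markers to between 140102 and 472420 in pericyte libraries. The 6 microglial markers reached 26586 in endothelial, 36252 in pericyte and 18356 in astrocyte libraries of replicates 1 to 4 but were at or under 1244 in replicates 5 and 6. 2 endothelial libraries stood apart, contralateral replicate 2 and ipsilateral replicate 1, in which *Pecam1* was 5823 and 6181 against at least 12492 in the other 10. The other endothelial markers did not all go the same way. *Ptprb* was the lowest of its group in both, at 13417 and 5422. *Cldn5* was within its group in the first (40629) and the highest in the second (43955 against at most 42057). *Cdh5* was the highest in the first (3275 against at most 2509) and within its group in the second (1587). In bulk RNA, fewer cells of a type and less RNA per cell cannot be told apart.

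Of the 4 members that changed with stroke, 3 have an entry in the RefSeq promoter table of GRCm38.p6, and the 250 bases before the start of each are shown 5′ to 3′ on the gene's strand, so that the sequence in front of the genes that moved can be read beside their values. *Tgfb2* lies at chr1:186622792-186705989 on the minus strand and its upstream bases at chr1:186705990-186706239, *Tgfbr1* at chr4:47353222-47414931 on the plus strand with upstream bases at chr4:47352972-47353221, and *Tgfbi* at chr13:56609586-56639358 on the plus strand with upstream bases at chr13:56609336-56609585. Capitals mark CAGAC, the core that Smad proteins bind, and GGCGCC, a GC-rich Smad site, on either strand. These did not overlap each other.
Tgfb2: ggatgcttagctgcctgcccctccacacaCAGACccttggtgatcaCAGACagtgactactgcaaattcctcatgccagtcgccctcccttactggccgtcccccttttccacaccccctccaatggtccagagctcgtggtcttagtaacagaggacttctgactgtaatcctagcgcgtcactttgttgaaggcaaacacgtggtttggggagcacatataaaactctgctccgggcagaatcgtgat
Tgfbr1: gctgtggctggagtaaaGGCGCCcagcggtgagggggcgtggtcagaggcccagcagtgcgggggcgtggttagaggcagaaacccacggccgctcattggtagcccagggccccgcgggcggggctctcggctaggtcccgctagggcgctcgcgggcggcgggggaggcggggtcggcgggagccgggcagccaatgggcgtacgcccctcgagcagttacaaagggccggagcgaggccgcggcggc
Tgfbi: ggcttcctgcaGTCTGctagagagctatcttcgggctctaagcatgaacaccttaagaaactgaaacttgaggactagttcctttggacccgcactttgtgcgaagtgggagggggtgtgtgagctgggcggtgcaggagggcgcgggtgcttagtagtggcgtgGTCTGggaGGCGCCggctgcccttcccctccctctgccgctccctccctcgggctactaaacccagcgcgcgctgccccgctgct
*Tgfb2* held CAGAC at -221 and -204 from the start, *Tgfbi* held it at -239 and -85 with GGCGCC at -77, and the *Tgfbr1* window shown held GGCGCC at -233 and no CAGAC. The table lists another start of *Tgfbr1*, whose upstream window at chr4:47385966-47386215, not shown, held CAGAC at -203 and no GGCGCC. Of 32851 upstream windows of the same length in the table, 42.2% held CAGAC, 9.59% held GGCGCC and 6.75% held the AP-1 letters TGANTCA, which were in none of the 8 windows listed for 7 of the members. The share of G and C was 53.6% in *Tgfb2*, 62.4% in *Tgfbi* and 74.8% in the *Tgfbr1* window shown, beside a median of 52.4% over all windows. A match describes letters and does not show a bound site.

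The leading TGF-beta ligand was *Tgfb3* in pericytes, *Tgfb1* in microglia and *Tgfb2* in both endothelial cells and astrocytes. Ligands were compared with each other as normalized counts per kb of exon, and in contralateral libraries *Tgfb3* led in 6 of 6 pericyte libraries with a mean share of 88.2% ± 3.68 (SD, n = 6) of the 3 ligands. *Tgfb2* led in 6 of 6 endothelial libraries with 89.5% ± 5.12 and in 6 of 6 astrocyte libraries with 67.7% ± 9.28, and *Tgfb1* led in 6 of 6 microglial libraries with 78.7% ± 12.2. The 3 ligands summed to 2948 ± 901 normalized counts per kb in pericytes, 259 ± 43.4 in endothelial cells, 178 ± 16.5 in astrocytes and 81 ± 25.8 in microglia. On the ipsilateral side the same ligand led in all libraries of each cell type except for 1 astrocyte library, which *Tgfb3* led, and the sums were 1543 ± 505 in pericytes, 123 ± 39.4 in endothelial cells, 144 ± 24.5 in astrocytes and 51.2 ± 28.3 in microglia.

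**Figure D1:**
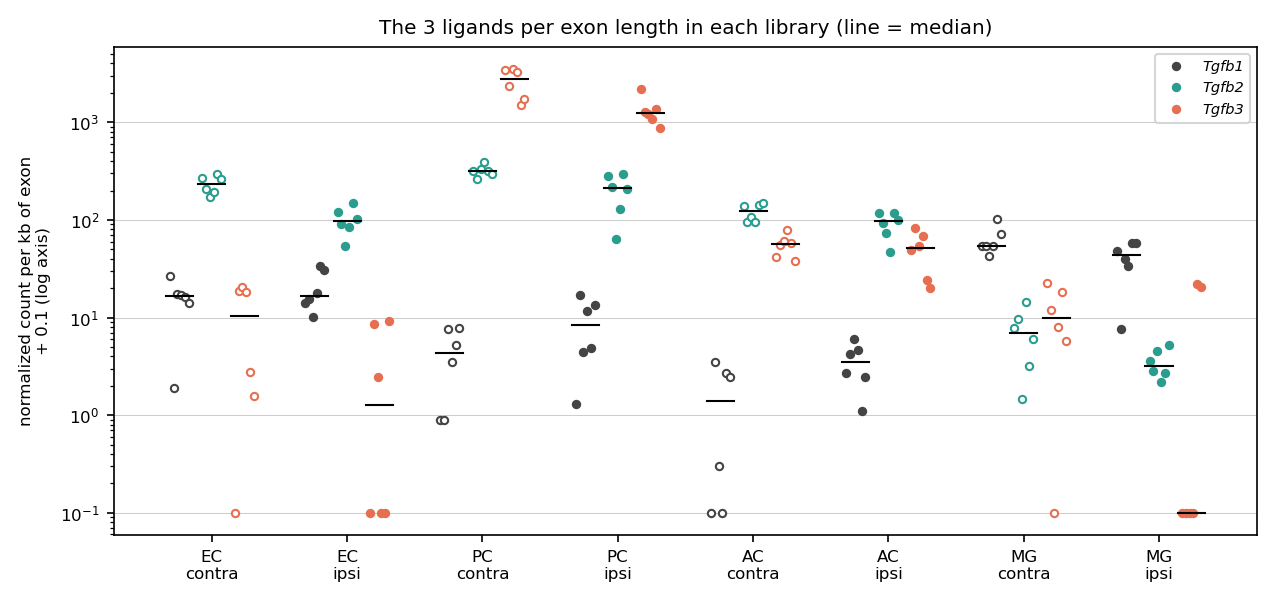
Normalized counts per kb of exon (log axis, 0.1 added) of *Tgfb1*, *Tgfb2* and *Tgfb3* in each library, by cell type and hemisphere, with open points for contralateral and filled points for ipsilateral libraries and a line at each median. *Tgfb3* stands above the other ligands in pericytes, *Tgfb2* in endothelial cells and *Tgfb1* in microglia in both hemispheres.

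Levels between cell types were compared by limma in the 24 contralateral libraries. A gene was called when its Benjamini-Hochberg adjusted p was at most 0.05, its difference at least 1.5-fold, and its value over 10 in all 6 libraries of at least 1 group. By this rule 7 of 10 members differed between endothelial cells and pericytes, beside 30.1% of all genes tested, 8 between endothelial cells and astrocytes (44.2%), 7 between endothelial cells and microglia (37.6%), 5 between pericytes and astrocytes (41.1%), 6 between pericytes and microglia (42.7%) and 9 between astrocytes and microglia (46.3%). The order of levels from cell type to cell type follows for each gene.

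*Tgfb1*, the ligand best known from immune cells, lies at chr7:25687002-25705077. Its contralateral values had a lowest, median and highest of 215, 270 and 519 normalized counts in microglia, 9, 83.5 and 133 in endothelial cells, 4, 21.5 and 39 in pericytes and 0, 6.5 and 17 in astrocytes. Microglia were above endothelial cells (log2 difference 2.29, SE 0.81, adjusted p = 0.0246), and their libraries did not overlap. The next steps down did not pass, with adjusted p = 0.0662 between endothelial cells and pericytes and 0.0546 between pericytes and astrocytes. Without contralateral endothelial replicate 2, where *Tgfb1* was 9, the first step was 1.76 (adjusted p = 0.0706) and the second 2.47 (adjusted p = 0.0148), so that the first was no longer called and the second was.

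*Tgfb2*, which is needed for heart and vessel development, was highest in pericytes, at 1534, 1832 and 2269 (lowest, median and highest) normalized counts, followed by endothelial cells at 991, 1360 and 1716. These neighbours did not differ beyond their spread (log2 difference 0.48, SE 0.35, adjusted p = 0.316). Astrocytes followed at 551, 714 and 858, below endothelial cells by 0.94 (SE 0.35, adjusted p = 0.0274), and microglia came last at 8, 39.5 and 82, below astrocytes by 4.39 (SE 0.35, adjusted p = 2.11e-10).

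*Tgfb3* (chr12:86056745-86079041, minus strand) was a pericyte gene in these libraries. Its contralateral values were 5120, 9486 and 11823 normalized counts in pericytes against 128, 190 and 269 in astrocytes, a log2 difference of 5.53 (SE 0.92, adjusted p = 2.3e-05). Microglia (0, 33.5 and 76) lay below astrocytes by 3.06 (SE 0.92, adjusted p = 0.00692), and endothelial cells (0, 35 and 69) could not be separated from microglia (log2 difference 0.46, SE 0.92, adjusted p = 0.739). The smooth muscle markers named above were high in the same pericyte libraries, and the part of mural cells other than pericytes in the *Tgfb3* level was not tested.

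The receptors divided the cell types in another way. *Tgfbr1* was a microglial gene: its contralateral values were 9171, 13883 and 15834 normalized counts in microglia, while astrocytes (276, 416 and 965), endothelial cells (286, 477 and 639) and pericytes (232, 312 and 676) overlapped each other and lay at least 4.79 (SE 0.29, adjusted p = 2.14e-12) below on the log2 scale. The steps from astrocytes to endothelial cells (0.06, SE 0.29, adjusted p = 0.874) and from endothelial cells to pericytes (0.40, SE 0.29, adjusted p = 0.307) did not pass. *Tgfbr2* (chr9:116084293-116175360, minus strand), the receptor that binds the ligand, was high in microglia (5309, 7362 and 8379) and in endothelial cells (2104, 6544 and 9807), which did not differ (0.31, SE 0.46, adjusted p = 0.633). Pericytes (1370, 2168 and 3348) were below endothelial cells by 1.42 (SE 0.46, adjusted p = 0.0172) and astrocytes (135, 546 and 1434) below pericytes by 2.21 (SE 0.46, adjusted p = 0.00029). Per kb of exon, *Tgfbr2* stood at 787 ± 357 against 71.3 ± 21.8 for *Tgfbr1* in endothelial cells, whereas in microglia *Tgfbr1* stood at 2008 ± 387 against 879 ± 130 for *Tgfbr2* (means ± SD of contralateral levels, n = 6).

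*Acvrl1* and *Eng* were endothelial. *Acvrl1* (chr15:101128522-101145336) had contralateral values of 7137, 14590 and 17128 normalized counts in endothelial cells, 383, 602 and 816 in microglia, 271, 438 and 647 in pericytes and 19, 136 and 381 in astrocytes. Endothelial cells exceeded microglia by 4.50 (SE 0.45, adjusted p = 1.07e-08), microglia did not differ from pericytes (0.37, SE 0.45, adjusted p = 0.527), and pericytes exceeded astrocytes by 1.98 (SE 0.45, adjusted p = 0.000733). *Eng* (chr2:32646595-32682669) had 1894, 17006 and 18828 in endothelial cells, 670, 1032 and 2285 in pericytes, 970, 1142 and 1623 in microglia and 27, 242 and 364 in astrocytes. Its endothelial level exceeded the pericyte level by 3.33 (SE 0.55, adjusted p = 2.61e-05), and pericytes did not differ from microglia (0.00, SE 0.55, adjusted p = 1.0). The lowest endothelial value of both genes came from the contralateral library that stood apart, and the other 5 had at least 15421 for *Eng* and 14030 for *Acvrl1*.

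The inhibitory Smads were low to moderate everywhere. *Smad6* (chr9:63953076-64022059, minus strand), which acts mainly on the Smad1 and Smad5 branch, was highest in endothelial cells at 279, 516 and 792 normalized counts, above pericytes (8, 73.5 and 425) by 2.52 (SE 0.72, adjusted p = 0.00769). Pericytes, microglia (11, 51 and 129) and astrocytes (12, 42 and 61) were not separated, with adjusted p = 0.248 and 0.86 for the steps between them. *Smad7* (chr18:75367529-75395935), which acts on both branches, was highest in microglia at 285, 352 and 664, but the step to endothelial cells (142, 234 and 327) did not pass (0.81, SE 0.35, adjusted p = 0.0675). Endothelial cells were above astrocytes (60, 116 and 267) by 0.91 (SE 0.35, adjusted p = 0.0344), and astrocytes and pericytes (36, 74.5 and 88) were not separated (0.81, SE 0.35, adjusted p = 0.0617). *Tgfbi* was highest in microglia at 846, 1510 and 1904, followed by pericytes at 142, 367 and 1119 and astrocytes at 65, 166 and 473, with no step between neighbours that passed among these 3 (adjusted p = 0.0993 and 0.216). Endothelial cells, at 0, 67.5 and 184, lay below astrocytes by 2.25 (SE 0.88, adjusted p = 0.0359).

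**Figure D2:**
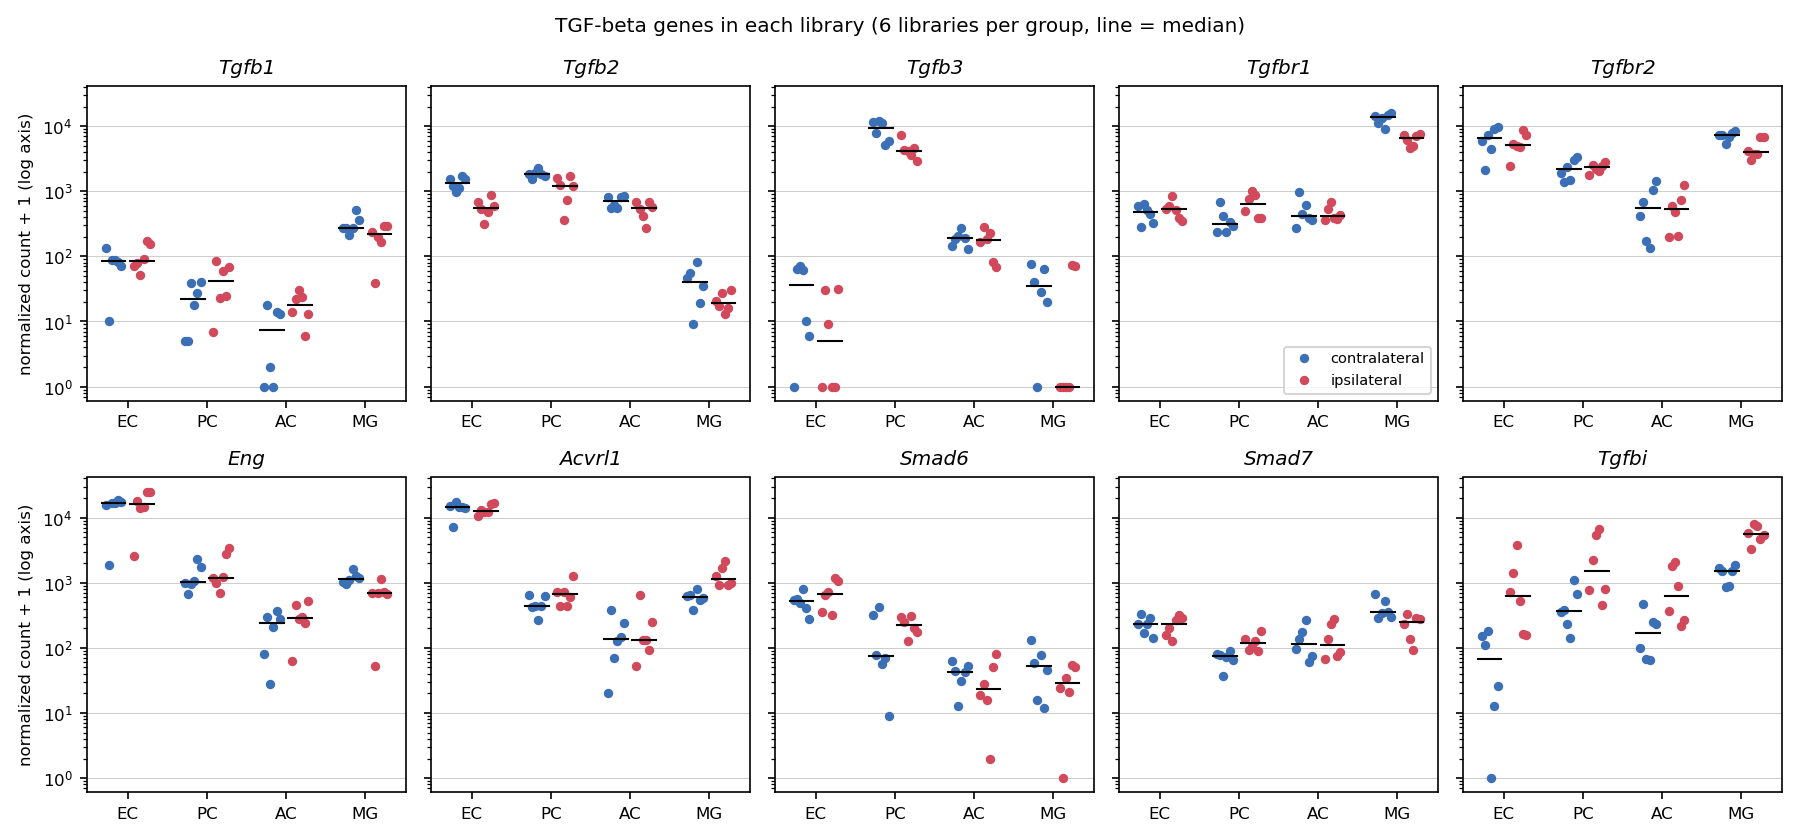
Normalized counts plus 1 (log axis) of the 10 genes in each of the 48 libraries, by cell type (EC endothelial cells, PC pericytes, AC astrocytes, MG microglia), blue for contralateral and red for ipsilateral, with a line at each median. *Acvrl1* and *Eng* are high in EC, *Tgfb3* in PC and *Tgfbr1* in MG, and the ipsilateral points of *Tgfb2* in EC and of *Tgfbr1* in MG lie below the contralateral ones.

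The main question of the study is how each cell type differs between the ischemic and the control hemisphere. Of the 10 members, *Tgfb2* fell in endothelial cells, *Tgfbr1* fell and *Acvrl1* and *Tgfbi* rose in microglia, and none was called in pericytes or astrocytes. Called were thus 3 of 10 in microglia beside 10.6% of all genes tested, 1 of 10 in endothelial cells beside 0.491%, 0 of 10 in pericytes beside 1.02% and 0 of 10 in astrocytes beside 0.341%. The median log2 change of the members was -0.87 in microglia, 0.68 in pericytes, 0.10 in endothelial cells and 0.06 in astrocytes, where the medians of all genes tested were -0.18, -0.04, -0.03 and -0.06. At an unadjusted p under 0.05, 2098 of 13597 genes differed in pericytes and 1416 of 15264 in astrocytes, of which 139 and 52 were called.

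**Figure D3:**
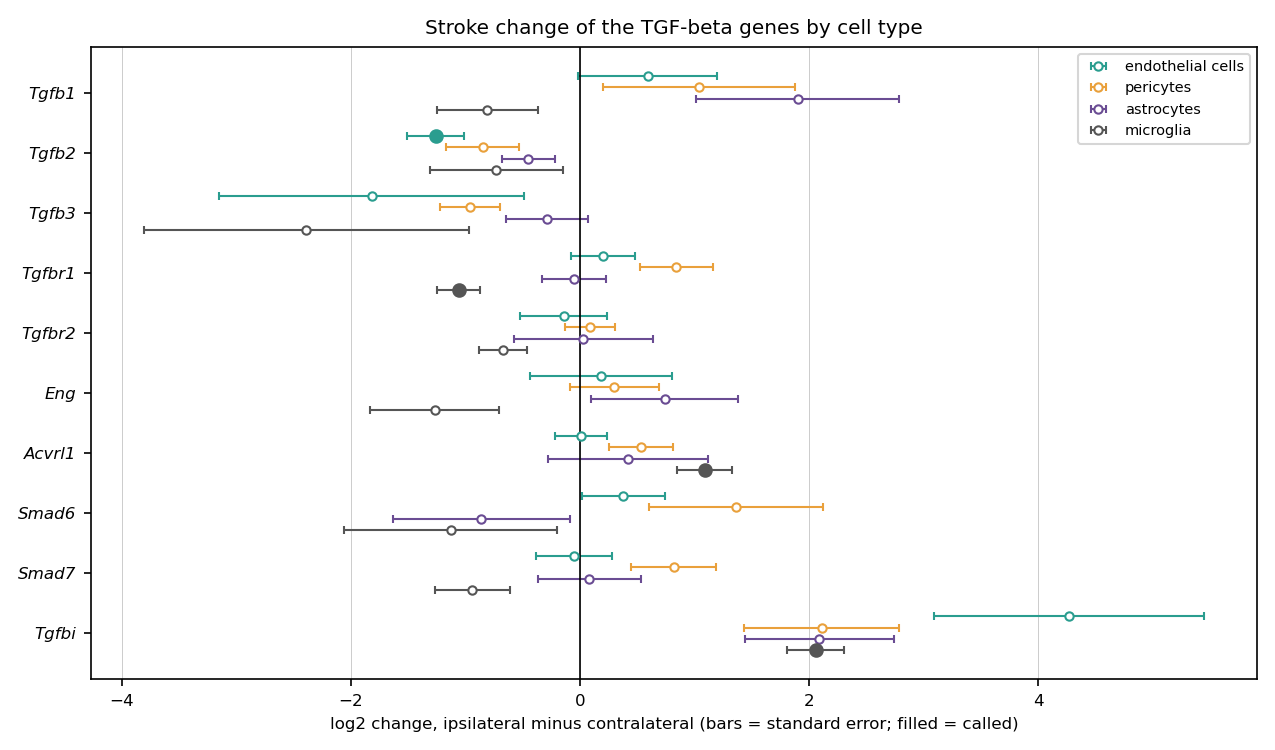
Log2 change (ipsilateral minus contralateral) of each of the 10 genes in the 4 cell types, with standard errors from limma and filled points for called changes. The 4 filled points are *Tgfb2* in endothelial cells at -1.26 and *Tgfbr1*, *Acvrl1* and *Tgfbi* in microglia at -1.06, 1.09 and 2.06.

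Among the ligands, only *Tgfb2* in endothelial cells was called. It went from 991, 1360 and 1716 normalized counts (lowest, median and highest of the contralateral libraries) to 311, 558 and 864, a mean of 1349 ± 289 against 578 ± 188 (SD, n = 6 each). The 2 groups did not overlap, and *Tgfb2* was lower in 6 of 6 pairs of hemispheres, by 0.99 to 1.67 on the log2 scale. The change was -1.26 (SE 0.25, adjusted p = 0.0398, limma). It kept its direction but not its call when any 1 replicate was left out (adjusted p from 0.0586 to 0.197), with no filter on low genes (0.0693) and in replicates 1 to 4 alone (0.24), and without the 2 libraries that stood apart it was -1.36 (SE 0.26, adjusted p = 0.0174).

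In pericytes *Tgfb2* had ipsilateral values of 366, 1220 and 1704 against 1534, 1832 and 2269, lower in 6 of 6 pairs, and the change of -0.85 (SE 0.32, adjusted p = 0.212) was not called. In astrocytes it had 272, 558 and 687 against 551, 714 and 858, again lower in 6 of 6 pairs and not called (-0.45, SE 0.23, adjusted p = 0.606). The difference between the endothelial and the pericyte change was -0.41 (SE 0.50, adjusted p = 0.899). *Tgfb3* in pericytes had 2965, 4228 and 7428 against 5120, 9486 and 11823, lower in 6 of 6 pairs by 0.14 to 1.62. Its groups overlapped, and the change of -0.96 (SE 0.26) had an adjusted p of 0.0966. The smooth muscle markers moved with it, with sums of 140102 to 323604 in ipsilateral against 305671 to 472420 in contralateral pericyte libraries, and their part in the *Tgfb3* values was not tested.

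*Tgfb1* was not called in any cell type. In microglia, where it was highest, it had 38, 220 and 294 ipsilaterally against 215, 270 and 519, lower in 6 of 6 pairs (-0.81, SE 0.44, adjusted p = 0.236). The ipsilateral value of 38 came from replicate 2, and the other 5 had at least 168. In endothelial cells its ipsilateral values were 50, 84 and 171 against 9, 83.5 and 133 (0.59, SE 0.61, adjusted p = 0.766). The values of 0, 6.5 and 17 against 5, 17 and 30 in astrocytes lie near the floor of 3 reads, and those of *Tgfb3* in endothelial cells and microglia include libraries at 0 on both sides.

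The clearest changes of the receptors were in microglia, and they went in opposite directions. *Tgfbr1*, the type I receptor that passes the signal to Smad2 and Smad3, went from 9171, 13883 and 15834 to 4648, 6590 and 7593 normalized counts. The groups did not overlap, all 6 pairs fell by 0.87 to 1.53, and the change was -1.06 (SE 0.19, adjusted p = 0.00279), a mean of 13119 ± 2530 against 6280 ± 1270. *Acvrl1* went the other way, from 383, 602 and 816 to 918, 1127 and 2152. Its groups did not overlap either, all 6 pairs were higher by 0.48 to 2.12, and the change was 1.09 (SE 0.24, adjusted p = 0.0111). Without replicate 3, which had the largest rise, the change of *Acvrl1* was 0.88 (adjusted p = 0.0709). In a joint fit of all 48 libraries it was 1.09 with an adjusted p of 0.138. In microglial libraries endothelial markers summed to 255 to 1217 in contralateral and 243 to 2305 in ipsilateral libraries, and the part of endothelial RNA in *Acvrl1* was not tested.

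*Tgfbr2* in microglia had 3006, 3987 and 6823 against 5309, 7362 and 8379, and was lower in 6 of 6 pairs. Its change of -0.67 (SE 0.21, adjusted p = 0.0559) missed the threshold and passed it with the replicate number as a block (adjusted p = 0.0345). The pairs fell by 0.52 to 1.28 in replicates 1 to 4 and by 0.22 to 0.31 in replicates 5 and 6. *Eng* in microglia had 51, 690 and 1140 against 970, 1142 and 1623, lower in 6 of 6 pairs (-1.27, SE 0.56, adjusted p = 0.152). Its value of 51 came from ipsilateral replicate 2, the same library in which *Tgfb1* was 38, and without replicate 2 the change was -0.68 with an adjusted p of 0.0217.

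Outside microglia the receptors did not change by the test. In endothelial cells *Acvrl1* had 10635, 12815 and 16677 ipsilaterally against 7137, 14590 and 17128 (0.01, SE 0.23, adjusted p = 0.992). *Eng* had 2609, 16280 and 24970 against 1894, 17006 and 18828 (0.18, SE 0.62, adjusted p = 0.953), with the lowest value of each group in the libraries that stood apart, and without these 2 its change was 0.12 (SE 0.19, adjusted p = 0.779). *Tgfbr2* in endothelial cells differed by -0.14 (SE 0.38, adjusted p = 0.934). In pericytes *Tgfbr1* had 382, 630 and 998 against 232, 312 and 676, higher in 6 of 6 pairs (0.84, SE 0.32, adjusted p = 0.233), and *Acvrl1* had 443, 664 and 1264 against 271, 438 and 647, also higher in 6 of 6 pairs (0.53, SE 0.28, adjusted p = 0.393). The pericyte pairs of *Tgfbr1* were higher by 0.16 to 1.90 in replicates 1 to 4, where the ipsilateral libraries carried microglial markers at 4.60% to 21.0% of their mean microglial level, and by 0.20 to 0.40 in replicates 5 and 6, where the markers stood at 0.155% and 0.161%.

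The feedback genes were not called in any cell type. *Smad7* in pericytes had 90, 116 and 184 ipsilaterally against 36, 74.5 and 88, so that the groups did not overlap and 6 of 6 pairs were higher, by 0.03 to 1.53. Its change of 0.82 (SE 0.37) had an adjusted p of 0.308. In microglia *Smad7* had 92, 253 and 329 against 285, 352 and 664, lower in 5 of 6 pairs (-0.94, SE 0.33, adjusted p = 0.0826), and without replicate 2, the pair that went the other way, the change was -1.16 (adjusted p = 0.0312). *Smad6* in endothelial cells had 314, 683 and 1197 against 279, 516 and 792 (0.38, SE 0.36, adjusted p = 0.737). Its endothelial pairs were higher by 1.53 and 1.94 in replicates 5 and 6 but ranged from -1.33 to 0.57 in replicates 1 to 4. In astrocytes and microglia *Smad6* was at or below 129 in every library.

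*Tgfbi* had the largest change of the members called. In microglia it went from 846, 1510 and 1904 to 3266, 5646 and 8025 normalized counts, with no overlap and a rise in 6 of 6 pairs, and the change was 2.06 (SE 0.25, adjusted p = 0.000239). The rise was 1.13 to 3.24 in replicates 1 to 4 and 1.5 and 1.62 in replicates 6 and 5. In the joint fit of 48 libraries the change was 2.06 with an adjusted p of 0.148. Markers of monocytes, blood cells that the CD45low gate is meant to leave out, moved with it: the 6 markers summed to 345 to 1624 in contralateral and 2049 to 5338 in ipsilateral microglial libraries, with *Ccr2* at 31 to 110 and 57 to 251, and *Ly6c2* at 0 to 25 and 6 to 159. Most of the sum came from *Fn1*, at 223 to 959 and 1280 to 3687, and *Chil3*, at 58 to 591 and 511 to 2779. *Fn1* is also listed below as a Smad2 and Smad3 target. The 6 markers of border macrophages summed to 435 to 2223 and 1193 to 4554. The 6 neutrophil markers summed to 6408 to 7956 and 4291 to 18513, with medians of 7116 and 5012. The 18513 came from ipsilateral replicate 2, where *Tgfbi* was lowest (3266), *Eng* was 51 and *Tgfb1* was 38. The other ipsilateral sums were at most 6710. Of the neutrophil markers, *Csf3r* was lower in ipsilateral microglia, at 718 to 3457 against 5562 to 7882, and *S100a8* was higher, at 571 to 9831 against 20 to 534. *Ly6g* was at 0 in all contralateral and at most 6 in ipsilateral libraries. Their part in the *Tgfbi* values was not tested.

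*Tgfbi* was not called in the other cell types, although its ipsilateral value was the higher one in every pair of replicates 1 to 4. In endothelial cells it had 156, 632 and 3770 against 0, 67.5 and 184, higher in 6 of 6 pairs, by 2.29 to 9.06 on the log2 scale. The 9.06 came from pair 4, which went from 0 to 531, so its size depends on the 1 added before taking logs. The other pairs were higher by 2.29 to 4.35. The mean change of 4.27, which includes pair 4 (adjusted p = 0.14), was called only in the joint fit of 48 libraries (adjusted p = 0.00345). In pericytes it had 448, 1508 and 6652 against 142, 367 and 1119 (2.11, SE 0.68, adjusted p = 0.149), and in astrocytes 216, 628 and 2084 against 65, 166 and 473 (2.09, SE 0.65, adjusted p = 0.299). The pairs of replicates 1 to 4 were higher by 1.15 to 5.54 in pericytes and by 1.89 to 4.96 in astrocytes. In replicates 5 and 6 the same changes were -1.32 and 0.24 in pericytes and -0.19 and 0.20 in astrocytes, and the endothelial changes were 3.67 and 2.59. Both sides entered the pericyte changes. Contralateral pericyte values were 1119 and 676 in replicates 5 and 6 against 142 to 383 in replicates 1 to 4, and ipsilateral ones 448 and 800 against 782 to 6652.

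In normalized counts the sum of the 6 microglial markers did not follow *Tgfbi* in every pair. Their sum was lower on the ipsilateral side in endothelial pair 4 (4125 to 3715), where *Tgfbi* was 0 contralaterally and changed by 9.06. It was also lower in astrocyte pairs 1 (8205 to 3254) and 2 (18356 to 13444), where the change of *Tgfbi* was 1.89 and 1.93. In the other pairs of replicates 1 to 4 both were higher. Single markers did not all move alike. The median of *Cd68* went from 529 to 1870 in endothelial cells, 61.5 to 1889 in pericytes, 249 to 827 in astrocytes and 18898 to 23486 in microglia. That of *P2ry12* went from 391 to 174, 215 to 506, 286 to 170 and 31289 to 10624 in the same order. In microglia the mean of the sum was 308478 contralaterally and 172657 ipsilaterally. As a percent of the mean of the same hemisphere, it went from 1.34% to 2.15% in endothelial pair 4. In astrocyte pairs 1 and 2 it went from 2.66% to 1.88% and from 5.95% to 7.79%. *Tgfbi*, as a percent of its own mean, went from 0% to 9.19%, 7.1% to 6.4% and 33.9% to 31.3%. In the ipsilateral libraries the markers stood at 2.15% to 15.4% of their mean microglial level in endothelial replicates 1 to 4 and at 0.231% and 0.195% in replicates 5 and 6. In pericytes they stood at 4.60% to 21.0% and at 0.155% and 0.161%, and in astrocytes at 1.88% to 7.79% and at 0.337% and 0.433%. *Tgfbi* itself, as a share of its ipsilateral microglial mean, was 9.19% to 65.2% in endothelial replicates 1 to 4 and 2.86% and 2.70% in replicates 5 and 6. In pericytes it was 13.5% to 115% and then 7.75% and 13.8%, and in astrocytes 6.40% to 36.1% and then 3.74% and 4.62%. In each of these 18 ipsilateral libraries the share of *Tgfbi* was larger than that of the markers. The shares rest on different microglial means, of which the marker mean was lower and the *Tgfbi* mean higher ipsilaterally. Unequal shares therefore do not tell where the *Tgfbi* RNA came from. In ipsilateral pericytes of replicates 1 to 4 the neutrophil markers summed to 44 to 12926 and the monocyte markers to 2890 to 12036 normalized counts, and in replicates 5 and 6 to 50 and 155 and to 1620 and 3288. Of the monocyte markers, *Fn1* alone was at 1605 to 4750 in ipsilateral and at 1511 to 4234 in contralateral pericytes. In ipsilateral pericytes *Chil3* ranged from 0 to 6622, *Ccr2* from 0 to 445 and *Ly6c2* from 4 to 166. The part of RNA from microglia, neutrophils and monocytes in the *Tgfbi* values was not tested.

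**Figure D4:**
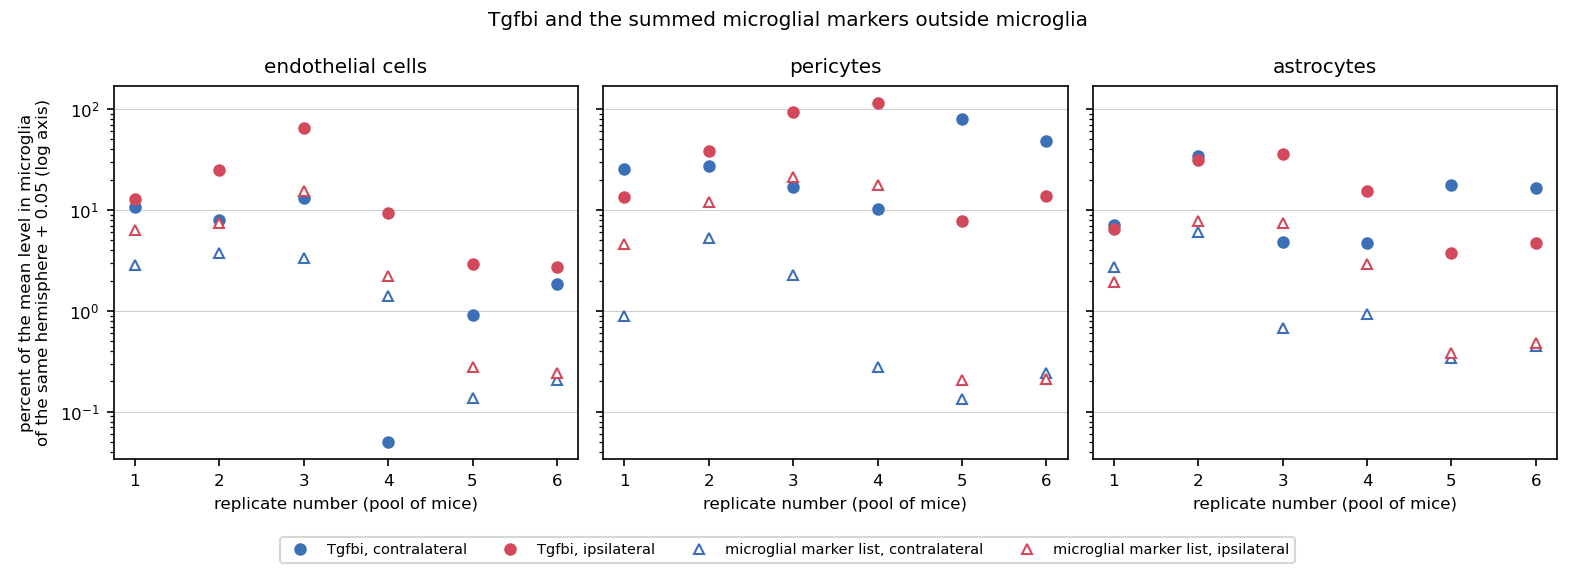
*Tgfbi* (filled circles) and the sum of the 6 microglial markers (open triangles) in endothelial, pericyte and astrocyte libraries, each as a percent of its mean level in microglia of the same hemisphere (log axis, 0.05 added), by replicate number, blue for contralateral and red for ipsilateral. Red triangles are higher in replicates 1 to 4 than in replicates 5 and 6, where all triangles stay under 0.5%. Red circles are higher in replicates 1 to 4 as well, except in pericytes, where replicate 1 (13.5%) lies beside replicate 6 (13.8%).

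Whether the stroke change differed between cell types was tested in a fit of all 48 libraries. Only *Tgfbr1* between pericytes and microglia was called, a difference of 1.90 (SE 0.39, adjusted p = 0.0104) between a change of 0.84 in pericytes and of -1.06 in microglia. That is 1 of 10 members beside 0.7% of all genes tested, and leaving out replicate 3 or 4 ended the call (1.73 and 1.72, adjusted p = 0.0765 and 0.116). With each pair of hemispheres as a block, *Smad7* between pericytes and microglia (1.76, adjusted p = 0.0436) and *Tgfbr1* between endothelial cells and microglia (1.27, adjusted p = 0.0483) were called as well. For the remaining pairs of cell types 0 of 10 members were called, beside 0.0267% of genes for endothelial cells against pericytes, 0.06% for endothelial cells against astrocytes, 0.273% for endothelial cells against microglia, 0.00667% for pericytes against astrocytes and 0.273% for astrocytes against microglia. The changes of *Tgfb2* in endothelial cells and of *Acvrl1* and *Tgfbi* in microglia were not shown to differ from those in the other cell types. For *Tgfbi*, the pericyte change minus the microglial one was 0.06 (SE 1.20, limma adjusted p = 0.992). The *Tgfbr1* change in microglia was not shown to differ from that in astrocytes (adjusted p = 0.389) or, without the block, in endothelial cells (adjusted p = 0.187).

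The rest of the pathway was followed through 9 lists of 95 genes, of which 92 were in the table. In microglia 15 of 72 tested were called, 10 down and 5 up, beside 10.6% of all genes tested, which is also the share to set beside the counts of the single lists that follow. The list with most calls held genes known to depend on TGF-beta in microglia: 8 of 10 fell, with a median log2 change of -1.38 over the list against -0.18 over all genes tested. *Slc2a5*, a fructose transporter, went from 5402, 6118 and 7047 to 616, 1440 and 3261 (-2.11, SE 0.37, adjusted p = 0.00278). *Siglech*, a sialic acid receptor, went from 14431, 16372 and 18714 to 2811, 6598 and 7719 (-1.59, SE 0.25, adjusted p = 0.00158). *Sall1*, a transcription factor of microglial identity, went from 2334, 2358 and 3113 to 556, 936 and 1678 (-1.36, SE 0.23, adjusted p = 0.00265). *P2ry12*, *P2ry13*, *Tmem119*, *Gpr34* and *Mertk*, named after their values were seen, fell as well, by 0.97 to 1.76. *Olfml3* (-0.52, SE 0.25, adjusted p = 0.191) and *Fcrls* (0.24, SE 0.17, adjusted p = 0.378) were not called. *P2ry12* and *Tmem119* are also on the list of microglial markers, which summed to 269590 to 349237 in contralateral and 118157 to 241795 in ipsilateral microglia.

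**Figure D5:**
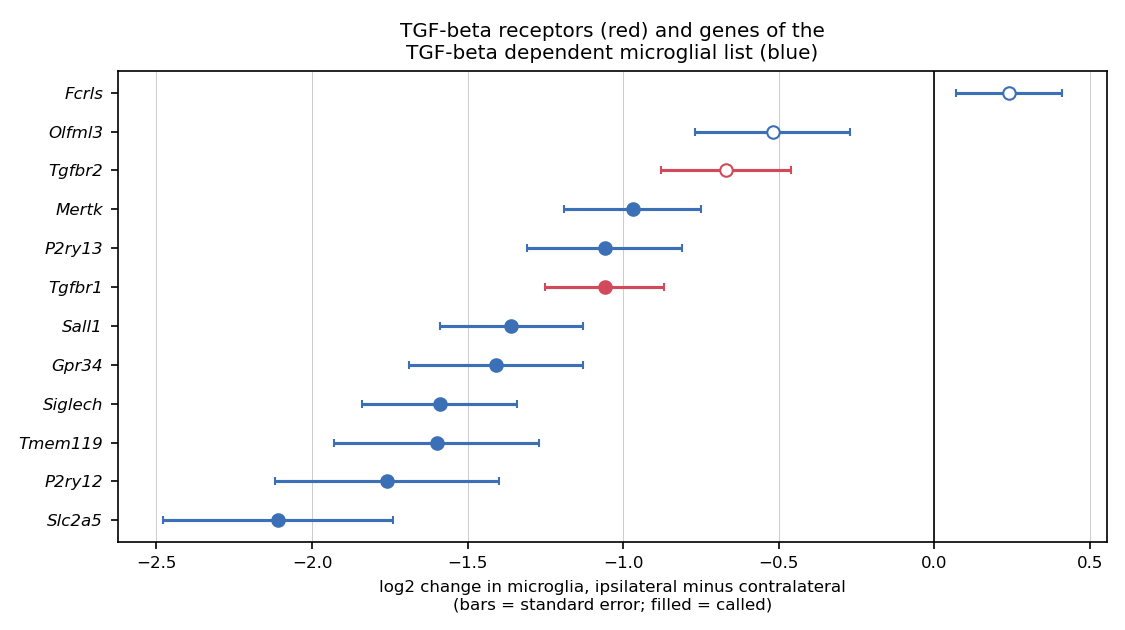
Log2 change in microglia (ipsilateral minus contralateral, bars for standard errors) of *Tgfbr1* and *Tgfbr2* (red) and of the 10 genes on the list of TGF-beta dependent microglial genes (blue), filled where called. *Tgfbr1* and 8 listed genes lie between -0.97 and -2.11, whereas *Fcrls* lies at 0.24.

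Of the other lists in microglia, 2 of 11 tested Smad2 and Smad3 targets rose, *Fn1* (fibronectin, 2.25, SE 0.34, adjusted p = 0.00138) and the cell cycle inhibitor *Cdkn1a* (0.94, SE 0.28, adjusted p = 0.0416), of which *Fn1* is also on the monocyte list. *Thbs1*, whose product can release TGF-beta from its latent form, rose from 165, 344 and 569 to 1942, 2265 and 3843 (2.97, SE 0.29, adjusted p = 2.89e-05), the only one called of 10 tested genes of latency and activation. *Id2*, a target of the Smad1 and Smad5 branch, rose (1.02, SE 0.29, adjusted p = 0.0346), 1 of 7 tested. Of the 10 negative regulators, *Ski* fell (-0.80, SE 0.16, adjusted p = 0.00716) and *Fkbp1a*, whose product binds type I receptors, rose (0.72, SE 0.22, adjusted p = 0.0498), and of 9 other receptors *Acvr2b* fell (-2.71, SE 0.74, adjusted p = 0.0297). No signal-carrying Smad passed, the nearest being *Smad3* at -0.61 (SE 0.21, adjusted p = 0.0692), which was named after its values were seen.

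In pericytes 2 of 86 listed genes tested were called, beside 1.02% of all genes tested. *Fstl1*, a secreted antagonist of the wider family, rose from 4297, 6520 and 7592 to 13907, 15304 and 18818 (1.32, SE 0.15, adjusted p = 0.00379). Its groups did not overlap. With the replicate block, and named after their values were seen, *Thbs1* (1.15, adjusted p = 0.033) and *Mertk* (-0.91, adjusted p = 0.0284) passed in pericytes, and *Thbs1* (2.83, adjusted p = 0.019) and *Ctgf* (2.20, adjusted p = 0.0395) in astrocytes. Without the block 0 of 86 were called in astrocytes, beside 0.341% of all genes tested, and 0 of 79 in endothelial cells, beside 0.491%. Without the 2 endothelial libraries that stood apart, 6 listed genes were called in endothelial cells, beside 3.03% of all genes tested in that fit. These, also named after their values were seen, were *Inhbb* (4.45, adjusted p = 0.0309), *Thbs1* (3.82, adjusted p = 0.0427), *Lrrc32* (1.32, adjusted p = 0.0164), *Fkbp1a* (1.15, adjusted p = 0.0125) and *Cyr61* (0.74, adjusted p = 0.0252), all higher, and the Notch and Smad target *Hey1* (-1.28, adjusted p = 0.00899).

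The genes most like each member were found by Pearson's correlation of log2 values over the 48 libraries. These libraries share cell type, pool and depth, so the correlations are descriptions. Among 15003 genes, *Nedd4* (r = 0.96) was among the nearest to *Tgfb2*, *Ctsa* (r = 0.96) and *Ifngr1* (r = 0.95) were nearest to *Tgfbr1*, *Sh2d3c* (r = 0.95) and *Abcg2* (r = 0.90) to *Eng*, and *Slfn5* and *Slc6a6* (both r = 0.94) to *Acvrl1*. *Tgfb1* was nearest to *Elf4* (r = 0.91) and *Skil* (r = 0.86), *Tgfb3* to *Arhgef17* and *1500009L16Rik* (both r = 0.90) and *Tgfbr2* to *F11r* (r = 0.91) and *Fmnl3* (r = 0.90). Lower values were reached by *Smad6* with *Adgrl2* (r = 0.85) and *Ltbp4* (r = 0.83), *Smad7* with *Jade2* (r = 0.83) and *Kdm6b* (r = 0.77), and *Tgfbi* with *Galns* (r = 0.85) and *Spp1* (r = 0.84).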

How the data were processed

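Reads of 75 bases from SMART-Seq HT libraries, made from about 250 pg of RNA, were trimmed by the authors with Trimmomatic 0.38, aligned to GRCm38 (mm10) with STAR 2.6.1d and counted on genes with featureCounts 1.6.3 without reads that overlapped several genes or mapped to several places (versions from the submitters' processing notes). The strand setting is not given in the sources used here. The authors divided the counts by DESeq2 1.18.1 size factors and deposited them rounded to whole numbers, a score that is not a raw count, so count tests were not used.

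From these values limma 3.58.1 (R 4.3.3, lmFit and eBayes with a trend) was run here on log2(normalized count + 1), keeping genes whose mean over the fitted libraries reached 10, and with two-sided tests: the stroke change in 12 libraries per cell type, contralateral levels in 24 libraries, and differences in stroke change in 48. The expression rule, value over 10 in all 6 libraries of a group, follows the study. Fold changes on this scale understate those of low genes. Pairs of hemispheres were taken by replicate number, which the main fits did not include and which entered only as the replicate block. Same-numbered hemispheres deviated together with a mean correlation of 0.38 (astrocytes), 0.23 (endothelial cells), 0.23 (pericytes) and 0.14 (microglia), where differently numbered ones gave -0.08, -0.04, -0.04 and -0.03. Single correlations of same-numbered hemispheres ranged from 0.01 to 0.55 in endothelial cells and from -0.03 to 0.35 in microglia. Exon lengths are unions of GENCODE M21 exons, whose gene coordinates matched the deposited ones for 9 of 10 members. The limma script was tested on simulated data. Figures and summaries used Python 3.11.15, pandas 2.3.3 and matplotlib 3.10.9.

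The genes named are the 10 members, up to 3 called genes per direction, list and cell type with the smallest adjusted p, the 2 genes most like each member, and markers that move with a member, of which 2 genes are not reported here. Members and lists were chosen with earlier results of these data known. Alternatives were the pseudocounts 0.1 and 10, a minimum mean of 50 or none, the replicate block, each replicate left out, replicates 1 to 4 only, rescaled values, no minimum fold change, no expression rule, a joint fit, the cell types of the titles and, added after the data were seen, leaving out the 2 endothelial libraries that stood apart.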

Additional observations from a re-analysis of the deposited data

Results flagged for a closer look

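In 80 groups of 6 libraries (10 genes, 4 cell types, 2 hemispheres) 5 held a value set apart from the others by a gap of more than 0.625 of the group's range, the 95% limit of Dixon's test, which chance passes in about 1 group of 20. In contralateral endothelial replicate 2, *Eng* was 1894 normalized counts against 15421 to 18828 in the other 5 libraries, and *Acvrl1* was 7137 against 14030 to 17128. In the same library *Tgfbr2* was 2104 against at least 4457, *Pecam1* was 5823 against at least 15795, and *Cldn5* was 40629, within the 28965 to 57462 of the others. There *Ptprb* was 13417 against at least 15226, and *Cdh5* was higher, at 3275 against 1767 to 2509. *Acvrl1* was 1264 in ipsilateral pericyte replicate 6 against 443 to 732, and 647 in ipsilateral astrocyte replicate 2 against 51 to 251. *Tgfbi* was 3770 in ipsilateral endothelial replicate 3 against 156 to 1422, in the library with the highest microglial marker level of its group, 15.4% of the mean in microglia. The sums of neutrophil markers (10121) and border macrophage markers (2423) were also the highest of the group there. That of monocyte markers (18662) lay within the group. The part of these cells in the value was not tested.

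The stroke change of *Tgfbr1* differed between pericytes and microglia by 1.90 on the log2 scale (limma, adjusted p = 0.0104), higher in 6 of 6 pericyte pairs and lower in 6 of 6 microglial pairs.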

How the results depend on the processing

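No member's call reversed under the settings tried. Of the comparisons of one gene under one alternative, 630 of the stroke changes stayed on the same side of the threshold, 20 passed it and 13 no longer did, with 890, 13 and 27 for contralateral levels and 866, 2 and 2 for differences in stroke change. The stroke counts include the fits with the cell types of the sample titles, which gave most of the 20 and part of the 13. In endothelial cells the 1 member called became 0 with no filter, 0 in replicates 1 to 4 only, 0 to 0 with each replicate left out and 2 in the joint fit. The listed pathway genes called there, 0, became 0 to 1 with each replicate left out and 6 without the libraries that stood apart. In microglia the 3 members became 1 in the joint fit and 2 to 5 with each replicate left out (2 without replicate 3, 5 without replicate 2), and the 15 pathway genes became 9 to 17 (9 without replicate 3). In pericytes the 2 pathway genes became 4 with the replicate block and 1 both in replicates 1 to 4 only and with any replicate left out, and in astrocytes 0 became 2 with the replicate block. Between endothelial cells and astrocytes the 8 members that differed in level became 4 in replicates 1 to 4 only and 5 to 8 with each replicate left out (5 without replicate 5 or 6). With the replicate block the members that differed in stroke change went from 0 to 1 between endothelial cells and microglia and from 1 to 2 between pericytes and microglia, where each replicate left out gave 0 to 1 (0 without replicate 3 or 4). Beside these the block changed the call of *Tgfbr2* in microglia and no other call of a member. With the cell types of the sample titles, 8 members in pericytes and 7 in microglia were called. By the column names, that fit set contralateral pericytes against ipsilateral microglia, and the reverse. Its values therefore include the difference between these cell types, such as -10.98 and 7.63 for *Tgfb3*. Fits of 4 replicates have fewer degrees of freedom, and for the other shifts the cause was not tested. Depth limits *Tgfb1* in astrocytes and *Tgfb3* in endothelial cells and microglia, where libraries held 0.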
